A study of Mus musculus with 7 samples.

Results

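The miRNA names miR-297, miR-466, miR-467 and miR-669 followed by a letter mark a family of short RNAs from 1 intron of the mouse gene Sfmbt2. All rows of the deposited tables whose name starts this way were taken, 80 of 1966 mature miRNA names. The rule itself reads the name and no measured value. The tables come from small RNA sequencing of hepatocytes, the main cells of the liver, isolated from mice by collagenase perfusion and low-speed centrifugation, and the design concerns ALAS, which starts heme synthesis, and small RNAs. The pellet is enriched for hepatocytes, and other liver cells may remain in it. The 7 libraries are 3 of genotype WT and 4 of genotype ALAS12-KO, and every one carries the treatment label TMX, the controls included. The labels do not spell out TMX. Nor do they give the age and strain of the mice, the mutant alleles or what drives the deletion. ALAS12-KO stands for mutation of ALAS1/2 per the design text. The tables hold no Alas1 or Alas2 mRNA, so the genotype labels were not checked.

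Sfmbt2 encodes a Polycomb group protein and is imprinted: in the placenta and early embryo it is transcribed from the paternal copy. Its miRNA cluster was duplicated many times over in the rodent lineage, and it is known from the placenta, where it is needed for normal growth of trophoblast layers, and from embryonic stem cells. The hairpins are so alike that several of them give the same or nearly the same mature miRNA, which the duplex of 2 arms, 5p and 3p, releases after Dicer cleavage.

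The label of the cluster was checked against the GENCODE M21 annotation of GRCm38 (mm10). Sfmbt2 spans positions 10370510 to 10595253 of chromosome 2, plus strand. It has 2 annotated transcripts that span the miRNAs. The hairpins lie in intron 10 of the first (10461473 to 10523944) and in intron 11 of the other. There are 71 hairpins with these names, from 10466663 to 10518279, a stretch of 51.6 kb, and 0 of them overlap an Sfmbt2 exon. A repeated unit makes up the middle of the array. Its miR-467a hairpins, 10 in all, start a median of 2462 bp apart, the 8 miR-466b hairpins 2470 bp and the 12 miR-669a hairpins 2457 bp. The longest distances between neighbours were 4880, 9795 and 6373 bp. By name, 64 members had all their hairpins in this intron and 5 had hairpins there and elsewhere. Another 9 had them only elsewhere, and 2 (the arms of miR-466a) matched no hairpin gene. The name rule therefore takes in a few rows from outside Sfmbt2, but these carried almost no reads: 856 of the 863 reads of all members, or 99.2%, belonged to names found only in the intron.

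RefSeq's table (GRCm38.p6) held mature sequences for 8 of the 80 members, all of them names from outside Sfmbt2. They are shown for the repeat character of such names, written 5′ to 3′ with the seed, bases 2 to 8, in capitals. The seed is the stretch that pairs with target mRNAs.
miR-466q: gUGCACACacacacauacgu
miR-466i-3p: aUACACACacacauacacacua
miR-467f: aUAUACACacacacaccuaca
miR-467g: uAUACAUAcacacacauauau
miR-466k: uGUGUGUGuacauguacauguga
miR-466j: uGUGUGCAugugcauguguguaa
The first 4 are rich in CA steps and the last 2 in UG steps. No seed was shared among the 8 members with a sequence. The single other name in the table with the seed of a member was miR-668-5p, which shares that of miR-467h, and both had 0 reads. miR-466q, from an intron of Tnik at chr3:28419988-28420007 on the plus strand, was the only one of these 8 with any read, 5 in all: 2 in WT replicate 2, 2 in ALAS12-KO replicate 2 and 1 in ALAS12-KO replicate 3. miR-466k (chr3:85467396-85467418, plus strand), miR-467g (chr5:34732872-34732892, minus strand), miR-466j (chr10:60960802-60960824, plus strand), miR-467f (chr11:69635419-69635439, minus strand) and miR-466i-3p (chr13:17747552-17747573, plus strand) each had 0 reads in all 7 libraries. The hairpins of miR-467g, miR-467f and miR-466i lie within Grk4, Fxr2 and Cdk13 on the strand opposite to the gene, and that of miR-466j in no annotated gene.

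Few reads of the cluster were counted in these hepatocytes. The handling of reads that match several hairpins is not known, and its part in these low counts was not tested. The libraries held 7719180 to 21962191 miRNA reads, and the 80 members together took 41 to 178 of them. Levels are given in CPM, the reads of a name divided by all miRNA reads of its library and multiplied by 1000000, so 1 read stood for 0.0455 to 0.130 CPM. The labelled cell type was borne out by its miRNAs: 6 hepatocyte miRNAs, miR-122-5p first among them, summed to 605482 to 692663 CPM, about 76226 times the summed level of the cluster. Of the 80 members, 45 had 0 reads in every library, a share of 56.2% against 33.8% of all 1966 names. A count of 0 over the 7 libraries together allows up to 3 reads, or 0.0293 CPM. Another 16 members had 1 to 3 reads in all, 13 had 10 or more, and 7 had a read in every library. Only 4 members, or 5%, reached 10 reads in at least 3 libraries, against 444 of all names, or 22.6%. Without ALAS12-KO replicate 1, a library described below, 34 members in place of 35 had a read and the same count of 4 reached that level.

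**Figure D1:**
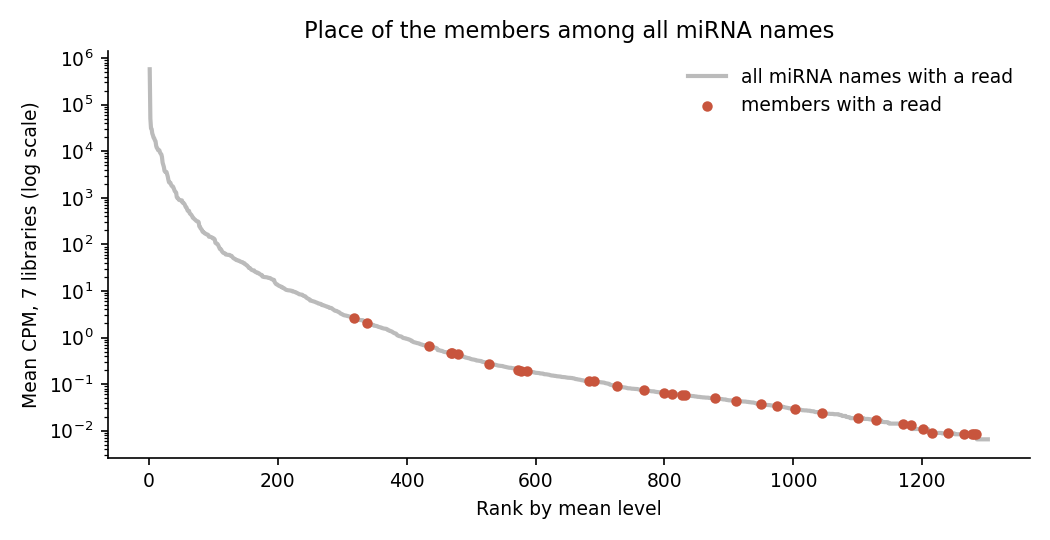
Mean CPM over the 7 libraries on a log scale against rank, for every miRNA name with a read (grey line) and for the members with a read (points). The highest member, miR-669a-3p, is at rank 318, and the others run down to the level of a single read.

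Reads were concentrated in a few names. miR-669a-3p and miR-467e-5p took 54.6% of all reads of the cluster, and the 6 most abundant members 79.3%. By family, miR-669 names held 50.2% of the reads, miR-467 names 38.0%, miR-466 names 11.6% and miR-297 names 0.232%, which was 2 reads. These were both of miR-297b-5p in WT replicate 2. The large miR-466 family had 31 names, of which 13 had a read and 0 reached 10 reads in 3 libraries. The smaller miR-467 family had 13 names, of which 6 had a read and 2 reached it.

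miR-669a-3p, matched by name to 12 annotated hairpins, was the most abundant member, and miR-669a has been reported to target MyoD. Among the 12 is Mir669a-3, whose 3p arm also has a name of its own, miR-669a-3-3p. The level of miR-669a-3p was 3.12, 2.32 and 3.50 CPM in WT replicates 1 to 3, from 50, 51 and 27 reads. In ALAS12-KO replicates 1 to 4 it was 1.06, 2.48, 2.81 and 2.81 CPM, from 14, 25, 48 and 46 reads. The groups overlapped, and the single low value was ALAS12-KO replicate 1. miR-467e-5p, from 1 hairpin at 10505721 to 10505807, was next, at 2.37, 1.68 and 2.85 CPM in WT and 0.987, 1.88, 2.28 and 2.56 CPM in ALAS12-KO. Again the lowest library was ALAS12-KO replicate 1, and the remaining ALAS12-KO values lay inside the WT range. miR-669c-5p, from 1 hairpin at 10509296 to 10509404, stood at 0.936, 0.683 and 0.777 CPM in WT. Its ALAS12-KO values were 0.152, 0.396, 0.702 and 0.855 CPM, the first from only 2 reads.

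The next 3 members had mean levels of 0.432 to 0.460 CPM over the 7 libraries. miR-467c-5p, from a hairpin at 10473931 to 10474027, had 0.499, 0.546 and 0.259 CPM in WT and 0.228, 0.297, 0.585 and 0.610 CPM in ALAS12-KO. It is the member just inside the limit of 10 reads in 3 libraries, with 12, 10 and 10 reads in the 3 that reach it. miR-467d-5p and miR-466b-3p are just outside, each with 2 such libraries. miR-467d-5p, from a hairpin at 10507630 to 10507714, had 0.374, 0.637 and 0.259 CPM in WT and 0.152, 0.495, 0.995 and 0.305 CPM in ALAS12-KO. miR-466b-3p, from 8 hairpins, had 0.374, 0.501 and 0.907 CPM in WT and 0.0759, 0.198, 0.585 and 0.549 CPM in ALAS12-KO. In each of these 3 the groups overlapped. The lowest of the 7 libraries was ALAS12-KO replicate 1 for all of them, and the highest differed: ALAS12-KO replicate 4 for miR-467c-5p, ALAS12-KO replicate 3 for miR-467d-5p and WT replicate 3 for miR-466b-3p.

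The remaining members had too few reads for a level in single libraries. miR-669o-3p had 6, 2 and 4 reads in WT and 1, 4, 5 and 3 in ALAS12-KO. miR-669m-5p had 5, 0 and 3 in WT and 0, 2, 4 and 5 in ALAS12-KO, and miR-467a-5p 1, 4 and 3 in WT and 0, 5, 2 and 1 in ALAS12-KO. In each of these 3 the groups overlapped. miR-466c-3p, taken up below with the genotypes, had 19 reads in all, miR-669a-5p 14, and miR-669b-5p and miR-669d-5p 11 each. miR-466l-3p, reported to stabilise the mRNA of the cytokine IL-10, had 1 read in all, in ALAS12-KO replicate 4. Members that differ by a few bases are uncertain one by one, because the tables do not tell how reads that match several hairpins were counted.

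**Figure D2:**
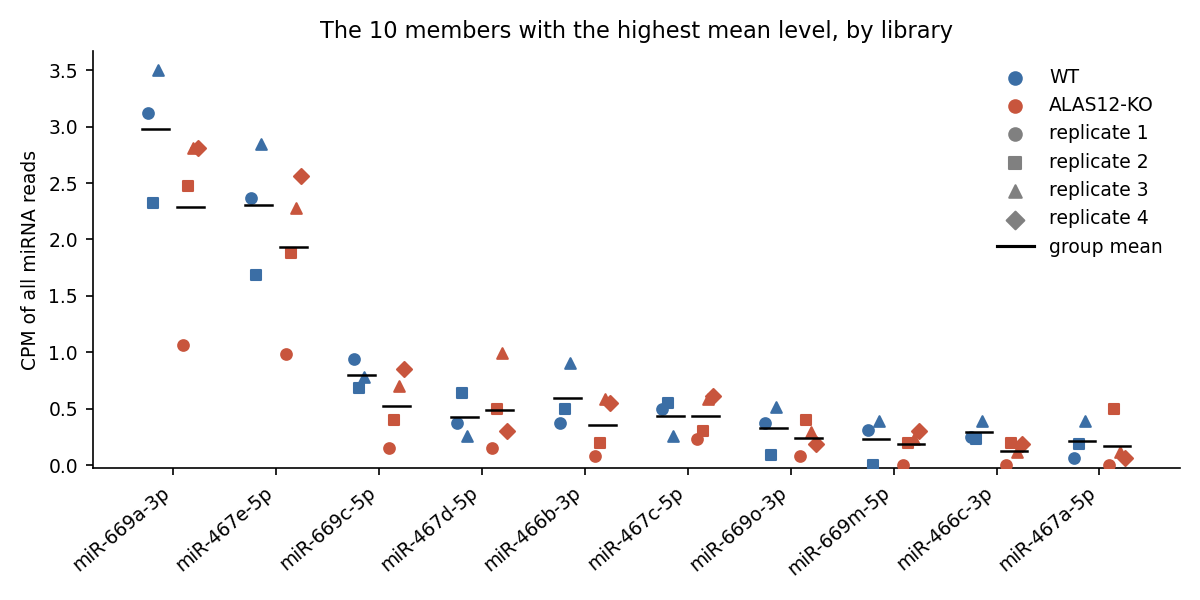
CPM of the 10 members with the highest mean level, 1 point per library (blue WT, red ALAS12-KO, the shape giving the replicate), with black bars at the group means. miR-669a-3p and miR-467e-5p stand above the rest, and ALAS12-KO replicate 1 (red circles) is the lowest red point or tied with it in each column.

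The 2 most abundant members made up similar shares of the cluster in each library. miR-669a-3p made up 27.7% to 34.1% of the reads of the cluster, lowest in ALAS12-KO replicate 3 (95% Wilson interval 21.6% to 34.8%) and highest in ALAS12-KO replicate 1 (21.6% to 49.5%). miR-467e-5p made up 20.8% (15.5% to 27.3%) in WT replicate 2 and 31.7% (19.6% to 47.0%) in ALAS12-KO replicate 1, the lowest and highest of the 7. For both members the intervals of these extreme libraries overlapped. The shares of scarcer members varied more in proportion to their size, though not in percentage points. miR-467d-5p made up 2.22% (0.612% to 7.74%) in WT replicate 3 and 9.83% (6.23% to 15.2%) in ALAS12-KO replicate 3, and these intervals overlapped too. miR-466b-3p ran from 2.44% in ALAS12-KO replicate 1 to 7.78% in WT replicate 3, and miR-467c-5p from 2.22% in WT replicate 3 to 7.32% in ALAS12-KO replicate 1. The intervals treat each read as a separate molecule and cover counting error only. Of the members with a read, 21 were seen in both genotypes, and they held 97.6% of the reads of the cluster. Those seen in only 1 genotype, 6 in WT and 8 in ALAS12-KO, had at most 3 and 2 reads.

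The number of hairpins went only loosely with the number of counted reads. How reads that match several hairpins were counted is not known, and its part in the values of this paragraph was not tested. Of the 45 names that have a hairpin in the annotation, with both arms summed, 36 have 1 hairpin and held 54.1% of the reads of the cluster, while the 9 with several held 395 reads. Mir669a-3 and Mir669d-2 count here both under names of their own and as hairpins of miR-669a and miR-669d. miR-467a has 10 hairpins and 16 reads, and miR-467e has 1 hairpin and 211 reads. Over the 45 names, Spearman's rho between hairpins and reads was 0.33, given as a description since these names share libraries and sequence. Along the intron, the names with 1 hairpin had their reads mostly near the 3′ end of the array. A stretch of 3.68 kb from Mir467e to Mir669c (10505721 to 10509404) holds 5 named hairpins, Mir467e, Mir466p, Mir467d, Mir297c and Mir669c. Together these had 336 reads, 71.9% of the reads of names with 1 hairpin. The stretch begins and ends at the most-read of these names, miR-467e (211 reads) and miR-669c (68 reads). It was thus set by the reads, and the share is a description only. miR-467c, with 48 reads, was the one name with 1 hairpin and over 40 reads outside this stretch.

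**Figure D3:**
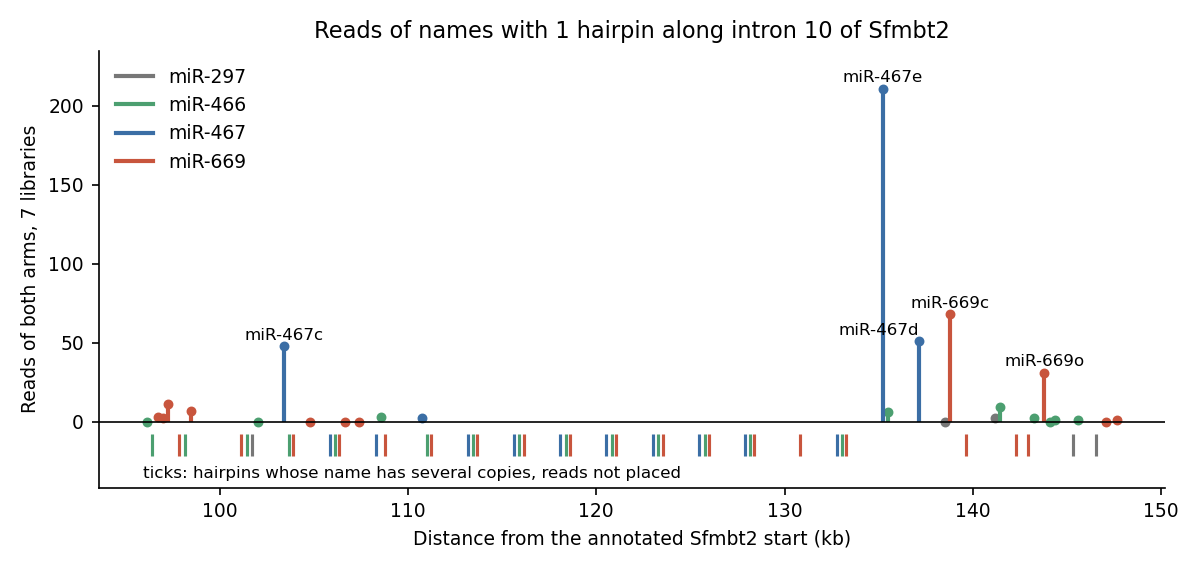
Reads of both arms summed over the 7 libraries (vertical lines) for names with 1 hairpin, against distance from the annotated start of Sfmbt2 in kb. Colours give the family, and ticks under the axis mark hairpins of names with several copies, whose reads cannot be placed. The 4 tallest lines are miR-467e, miR-669c, miR-467d and miR-467c.

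Most names with enough reads to compare the arms had them counted mainly on 1 arm. How reads that match several hairpins were counted is not known, and its part in the counts of the arms was not tested. Of 27 names with both arms listed and any read, 12 had 10 or more reads. In 10 of these 12 the major arm held over 90%. With few reads that share is uncertain: miR-669b and miR-669d, each with 11 reads to 0, had 95% Wilson intervals from 74.1%. miR-467e had 210 reads of 5p and 1 of 3p, so that 5p took 99.5% (95% Wilson interval 97.4% to 99.9%), and it was the higher arm in 7 of 7 libraries. miR-669a went the other way, with 261 reads of 3p and 14 of 5p, 94.9% (91.6% to 96.9%) for 3p, again in 7 of 7 libraries. The major arm was 5p in 8 of the 12 names, among them miR-669c, miR-467d, miR-467c and miR-467a, and 3p in the other 4, which are miR-669a, miR-466b, miR-669o and miR-466c. Members of 1 family could differ: in the miR-669 family 5p led in miR-669c with 68 reads to 0, and 3p in miR-669o with 25 to 6. miR-669o and miR-466c were the 2 names with the least lopsided arms, at 80.6% (63.7% to 90.8%) and 76.0% (56.6% to 88.5%).

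**Figure D4:**
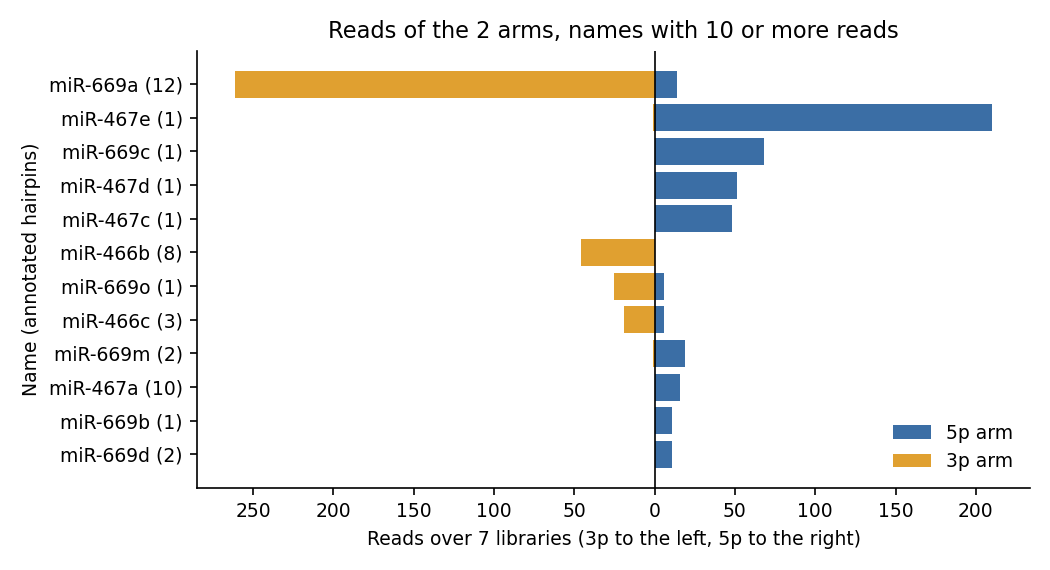
Reads of the 5p arm (blue, to the right) and the 3p arm (yellow, to the left) over the 7 libraries for the 12 names with 10 or more reads, with the number of annotated hairpins in brackets. The 4 names led by 3p are miR-669a, miR-466b, miR-669o and miR-466c.

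The comparison of the genotypes asked whether any member differed between ALAS12-KO and WT. No member passed the test, and the levels were too low to measure a difference for most of them. Only 3 of the 80 members passed the filter on low counts and entered the quasi-likelihood test of edgeR, which was fitted on all 450 miRNAs that passed. Of these 3, 0 had an adjusted p under 0.05, as did 0 of the 450 (0%), and 0 of the 3 had an unadjusted p under 0.05, against 84 of 450 (18.7%). DESeq2 called 22 of the 450 and limma-voom 0, and neither called a member, though DESeq2 gave miR-669c-5p no adjusted p. miR-669a-3p had a log2 fold change, ALAS12-KO over WT, of −0.21 ± 0.31 (SE; 95% interval −0.92 to 0.50, edgeR adjusted p = 0.733). miR-467e-5p had −0.069 ± 0.31 (−0.78 to 0.64, edgeR adjusted p = 0.921). miR-669c-5p had −0.42 ± 0.44 (−1.41 to 0.58, edgeR adjusted p = 0.612). All 3 intervals span 0, and that of miR-669c-5p is the widest. With the limit of 10 reads in 3 libraries as the filter, miR-467c-5p was tested as well, at 0.038 ± 0.42 (edgeR adjusted p = 0.987).

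The 3 WT libraries averaged 2.98 ± 0.600 CPM (SD) of miR-669a-3p and the 4 ALAS12-KO libraries 2.29 ± 0.832 CPM. The values for miR-467e-5p were 2.30 ± 0.586 and 1.93 ± 0.687 CPM, and for miR-669c-5p 0.799 ± 0.128 and 0.526 ± 0.314 CPM. These CPM are on library totals, while the fold changes use TMM factors, which ran from 0.806 in ALAS12-KO replicate 1 to 1.13 in WT replicate 3. With library totals in place of TMM the median of the 450 log2 fold changes moved from 0.058 to −0.12, and the values became −0.36 for miR-669a-3p, −0.22 for miR-467e-5p and −0.54 for miR-669c-5p. The groups of the 3 tested members overlapped, whereas 93 of 450 tested miRNAs (20.7%) did not overlap. Among the 35 members with any read, 2 did not overlap (5.71%, against 9.83% of the 1302 names with a read). miR-466c-3p had 4, 5 and 3 reads in WT and 0, 2, 2 and 3 in ALAS12-KO, with a lower CPM in each ALAS12-KO library than in any WT library. miR-669a-3-3p had 1 read in each WT library and 0 in each ALAS12-KO library. Both rest on at most 5 reads in a library, and the pair was picked after the values were seen. Nothing in the labels ties the replicates to different mice, so the p-values here reflect the spread between samples alone, and that spread may be technical.

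Without ALAS12-KO replicate 1, the log2 fold changes were −0.044 for miR-669a-3p and −0.19 for miR-669c-5p, and that of miR-467e-5p changed sign to 0.075. It also changed sign without WT replicate 3, to 0.044. For comparison, the other large imprinted miRNA cluster, Dlk1-Dio3 on chromosome 12, had 41 tested names, all 41 of them with a negative log2 fold change and with a median of −0.85, where 198 of all 450 tested miRNAs (44%) were negative with a median of 0.058. With library totals in place of TMM, 275 of the 450 were negative. The difference between the 2 clusters was not tested.

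The summed level of the cluster was lowest in ALAS12-KO replicate 1. It was 9.24, 8.10 and 11.7 CPM in WT replicates 1 to 3. In ALAS12-KO replicate 1 it was 3.11 CPM (95% exact Poisson interval 2.23 to 4.22, counting error only), and in replicates 2 to 4 it was 8.03, 10.1 and 9.28 CPM. The intervals of the other 6 libraries all overlapped one another, from a lowest bound of 6.37 to a highest of 14.3 CPM, and none reached that of ALAS12-KO replicate 1. Within the 4 ALAS12-KO libraries, its gap to the next was 0.701 of the group's range, under Dixon's 95% critical value for 4 libraries, so that test did not set it apart. The WT mean was 9.67 ± 1.82 CPM (SD, n = 3). The ALAS12-KO mean was 7.63 ± 3.14 CPM (SD, n = 4), a log2 ratio of −0.34. No test is given for a sum over the members. Without ALAS12-KO replicate 1 the mean of that group was 9.14 CPM and the log2 ratio −0.081. The low value ran through the families: this library had 0.228 CPM of miR-466 names, 1.37 of miR-467 names and 1.52 of miR-669 names, where the lowest of the other 6 libraries had 0.811, 3.05 and 3.76. It also had the fewest members with a read, 12, against 17 to 25 in the others. At the depth of the smallest library, 8.69 members would be expected in it and 13.4 to 18.0 in the others.

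ALAS12-KO replicate 1 was also the lowest library in miRNAs of the cells that accompany hepatocytes in the liver. It was the lowest in 7 of 7 leukocyte miRNAs, with a sum of 2999 CPM against 6530 to 10976 in the others. The same held for 5 of 5 mesenchymal miRNAs (1564 CPM against 3516 to 6971) and for both endothelial ones, miR-126a-3p and miR-126a-5p (10959 CPM against 25490 to 52472). For bile duct miRNAs it was the lowest in 4 of 5 (54.4 CPM against 75.9 to 243) and for red cell miRNAs in 2 of 4 (9.11 CPM against 13.7 to 27.2). The sum of its hepatocyte miRNAs was the highest of the 7 libraries, at 692663 CPM, of which miR-122-5p made up 615065. miR-122-5p, miR-192-5p, miR-194-5p and miR-101b-3p were each highest there. miR-148a-3p and miR-802-5p were not, at 23651 and 159 CPM. Their highest values were 26796 CPM in ALAS12-KO replicate 2 and 268 CPM in ALAS12-KO replicate 3. The 18 names of the trophoblast and embryonic stem cell clusters miR-290 to miR-295 included 10 with a read and 0 that reached 10 reads in 3 libraries, and their summed 1.59 CPM in ALAS12-KO replicate 1 lay within the 0.749 to 1.93 of the others. Dlk1-Dio3 names stood at 384 CPM there, also within the range of the others, 213 to 801.

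Counted against these lists, the cluster had its narrowest range on the leukocyte miRNAs as the base and its widest on the trophoblast and embryonic stem cell list. This comparison was chosen after the values were seen. The reads of the cluster were divided by the reads of a list and multiplied by 1000000, as for CPM. On the base of the 6 hepatocyte miRNAs this gave 14.4, 12.3 and 18.4 in WT and 4.49, 11.9, 16.7 and 14.7 in ALAS12-KO, a 4.10-fold range. On the base of the 7 leukocyte miRNAs it gave 1131, 889 and 1062 in WT and 1038, 1229, 1016 and 1092 in ALAS12-KO, a 1.38-fold range, and ALAS12-KO replicate 1 lay among the others. The 7 counting intervals on this base all overlapped, from 745 to 1408 in ALAS12-KO replicate 1 and from 763 to 1030 in WT replicate 2, the lowest. The ranges were 1.42-fold on the endothelial and 1.49-fold on the mesenchymal base, 2.57-fold on the bile duct base and 2.20-fold on the red cell base. With Dlk1-Dio3 reads as the base the range was 5.88-fold, with the reads of the miR-574 hairpin 3.64-fold, and with the few reads of the trophoblast and embryonic stem cell list 6.32-fold. On the endothelial base the genotypes did not overlap, at 222 to 244 in WT and 277 to 315 in ALAS12-KO, while miR-126a-3p itself had a log2 fold change of −0.61 ± 0.27 (edgeR adjusted p = 0.264). On the leukocyte base WT averaged 1027 ± 125 (SD, n = 3) and ALAS12-KO 1094 ± 95.7 (SD, n = 4). In whole libraries fewer cells of a type and less RNA per cell cannot be told apart, and the part of other cells in the level of the cluster was not tested.

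**Figure D5:**
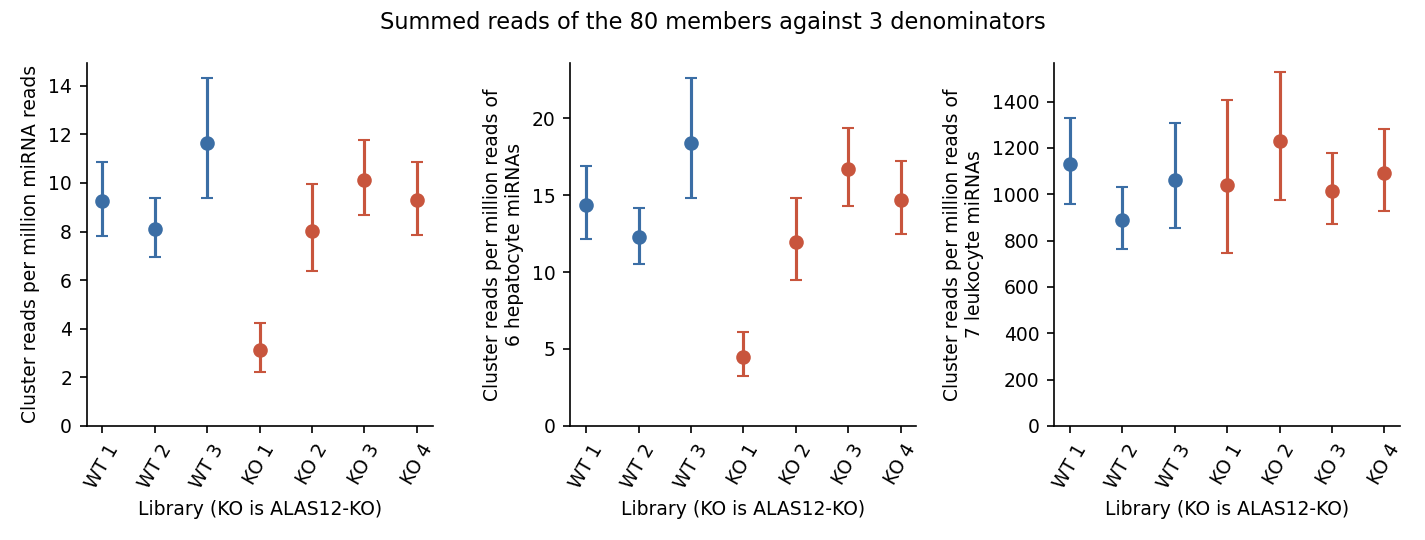
Summed reads of the 80 members in each library scaled to 1000000 reads of all miRNAs (left), of 6 hepatocyte miRNAs (middle) and of 7 leukocyte miRNAs (right), with 95% exact Poisson intervals (bars) that cover counting error only. ALAS12-KO replicate 1 (KO 1) is at 3.11 in the left panel, below all others, and at 1038 in the right panel, among them.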

How the data were processed

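Small RNA reads were counted per mature miRNA name by the authors, and the deposited counts are whole numbers with no normalisation. Per the submitters' processing notes, the tools include cutadapt and limma and the builds mm10 and hg38, without a stated use. The aligner was not given in the sources used here, nor were the counting tool and the miRNA set. An entry for reads aligned at several places is 0 in every table, so their handling is unknown, which matters for repeated hairpins. Reads outside any miRNA (50.9% to 73.7% of all reads), unaligned reads (4.54% to 8.00%) and other summary entries were left out of library totals and tests.

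CPM use the sum of miRNA rows. Differences came from edgeR 4.0.16 (robust quasi-likelihood, TMM, filterByExpr with a minimum count of 10) in R 4.3.3 on all 7 libraries, with Benjamini-Hochberg adjustment over all tested miRNAs and a threshold of 0.05. The SE is the fold change over the root of the F statistic. DESeq2 1.42.0, limma-voom (limma 3.58.1), other scalings, other filters, a fit blocked on replicate number and fits without 1 library each were alternatives, and the edgeR step was tested on simulated data. Positions came from GENCODE M21 on GRCm38 by gene symbol and RefSeq synonym. The added control RNAs were not used here, so levels are relative to all miRNAs. No pair of libraries of 1 group had equal counts (chi-square per degree of freedom 112 to 1288).

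Members and lists were chosen with earlier results of these data known. Values per library are given for the 10 members with the highest mean CPM and for tested members.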

Additional observations from a re-analysis of the deposited data

How the results depend on the processing

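No member was called under any of the 16 alternatives of the test, though DESeq2 gave miR-669c-5p no adjusted p and so could not call it. Over all miRNAs, where 0 of 450 were called, library totals called 2, DESeq2 22 and no filter (1302 miRNAs, 35 of them members) 13. Leaving out 1 library at a time gave 0 to 1 calls over all miRNAs (1 without ALAS12-KO replicate 2) and 0 to 0 for members. RLE size factors, upper-quartile factors, the filter of 10 reads in 3 libraries, limma-voom and summing rows of identical mature sequence (1966 to 1961 rows) gave 0. The replicate block, on replicates 1 to 3, called 0 of 438 miRNAs and 0 members. The deviations of same-numbered libraries from their group means had correlations of −0.025, −0.42 and −0.020. The labels do not say whether the numbers pair the samples, and correlations from so few libraries cannot decide it. The log2 fold change of miR-669a-3p ran from −0.39 to −0.044 and that of miR-669c-5p from −0.88 to −0.19. That of miR-467e-5p ran from −0.29 (leaving out 1 library, from −0.24) to 0.075, positive in 2 of 16 alternatives, at 0.044 without WT replicate 3 and 0.075 without ALAS12-KO replicate 1; the cause was not tested. The log2 ratio of the summed CPM ran from −0.51 to −0.081 over 13 alternatives, with both ends reached by leaving out a library. The planned test of arm ratios had no member to report: 130 hairpins had both arms past the filter and 129 past 10 reads in 3 libraries, 0 of them members. For rows below about 10 reads per library the depth limits every comparison between libraries.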

Other observations

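Names made of alternating purines and pyrimidines, as the CA and UG repeats above are, had few reads among those with a RefSeq sequence. The members from the intron of Sfmbt2 are not among them and were not searched. The search was chosen after the values were seen. Among 1675 mature names with a RefSeq sequence and a count, 9 had an unbroken alternation of at least 13 bases, and 7 of these are members. The 9 had 6 reads in all 7 libraries together, and 7 of them had 0, where 33.0% of all 1675 names had 0. The non-members are miR-1187, with 0 reads, and miR-574-5p, with 1 read.
miR-574-5p: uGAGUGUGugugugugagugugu
The other arm of the same hairpin, miR-574-3p, had 2606 reads. How the handling of reads that match many places bears on these counts was not tested.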
